A study of Mus musculus with 6 samples.

Results

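The homing and adhesion receptors of mouse blood progenitors described here are 9 integrin chains (Itga2, Itga4, Itga5, Itga6, Itgae, Itgb1, Itgb2, Itgb3 and Itgb7) and the chemokine receptor Cxcr4. They were taken from the array as the 15 probes whose RefSeq transcript maps to these 10 symbols, out of 16535 symbols with a probe, and all 10 genes passed the filter on dim probes, as did 15637 symbols that were tested in all. The samples were Lhx2 cells, a mouse line of blood progenitors immortalised with the transcription factor gene Lhx2. The treated group received 10 ng/ml of the cytokine TGF-β1 for 2 h (3 arrays), and the other group was left untreated (3 arrays). Both groups are the same cell line, grown with stem cell factor and interleukin 6, and the protocol has them starved of serum overnight before treatment. RNA came from 3 separate harvests. Samples that share a replicate number across the groups form pairs 1, 2 and 3. Pairs 1 and 2 each lay on 1 slide, while pair 3 was split over 2 slides.

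Integrins are cell surface receptors made of 1 alpha and 1 beta chain, and the pair of chains sets what the cell holds on to. In blood progenitors the Itga4 and Itgb1 products form VLA-4, which binds VCAM-1 and fibronectin in the bone marrow, the Itga5 and Itgb1 products form the fibronectin receptor VLA-5, and the Itga6 and Itgb1 products form a laminin receptor. The Itgb7 product pairs with that of Itga4 for the gut addressin MAdCAM-1 or with that of Itgae for E-cadherin, and the Itgb2 product pairs with leukocyte alpha chains such as those of Itgal and Itgam. Cxcr4 binds Cxcl12, which is made by marrow stroma, and this signal retains stem and progenitor cells in the marrow and switches integrins to their adhesive state. TGF-β1 signals through SMAD transcription factors and is known from T cells to raise Itgae.

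Levels are given as relative signal, which is the processed signal of the probe divided by the 75th percentile of all probes on the same array. That percentile lay between 882.7 and 1031 on the TGF-β1 arrays and between 794.2 and 1002 on the untreated arrays, and 82.8% to 90.3% of the probes exceeded background clearly. Levels of different probes are not compared, since each probe has its own brightness. The cells responded to the treatment: Skil, a SMAD co-repressor gene, rose 11.0-fold (limma adjusted p = 0.000976), and Smad7, the inhibitory SMAD that the pathway induces as feedback, rose 11.8-fold (limma adjusted p = 0.00111). Smad7 had relative signals of 1.21, 1.47 and 1.16 on the TGF-β1 arrays, against 0.104, 0.120 and 0.102 on the untreated arrays. The 8 markers of blood progenitors that were looked up were well above background on all 6 arrays. So were the 7 measured T cell and the 5 B cell markers, so passing this mark does not set a cell type apart. Among the progenitor markers the probe of Lhx2 itself read 0.0427, 0.050 and 0.0687 with TGF-β1, against 0.0516, 0.0602 and 0.0431 without. Whether that probe covers the introduced gene is not given in the sources used here.

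None of the 10 receptor genes passed the threshold for a change after 2 h of TGF-β1. With limma and Benjamini-Hochberg adjustment over 29163 genes and transcripts, 0 of 10 had an adjusted p under 0.05, where 0.254% of everything tested did (0.226% higher and 0.0274% lower). With the replicate number as a block 0 of 10 passed, where 0.672% did (0.552% higher and 0.12% lower). At an unadjusted p under 0.05 the count was 1 of 10 in both fits, that of Itga5, where 5.77% and 10.9% of all genes had such a p. The log2 change (TGF-β1 minus untreated) was positive for 8 genes and negative for 2, where it was positive for 14174 and negative for 14989 of all tested. Its median was 0.12, against a median of -0.01 over all genes tested. Without the block the 95% confidence interval of the change lay inside 2-fold either way for 8 of the 10. The exceptions were Itga2 and Cxcr4, and with the replicate block the Cxcr4 interval lay inside it as well. Itga5 was the 1 gene whose groups did not overlap, where 10.4% of all genes had groups that did not. Of all genes 5.37% lay wholly higher with TGF-β1, as Itga5 did, and 5.05% wholly lower, as 0 of the 10 did. Of the 10, 4 had the same sign in all 3 pairs, where 34.2% of all genes did: 3 were higher (Itga5, Itgae and Itgb7, against 14.1% of all genes) and 1 was lower (Itgb1, against 20% of all genes).

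**Figure D1:**
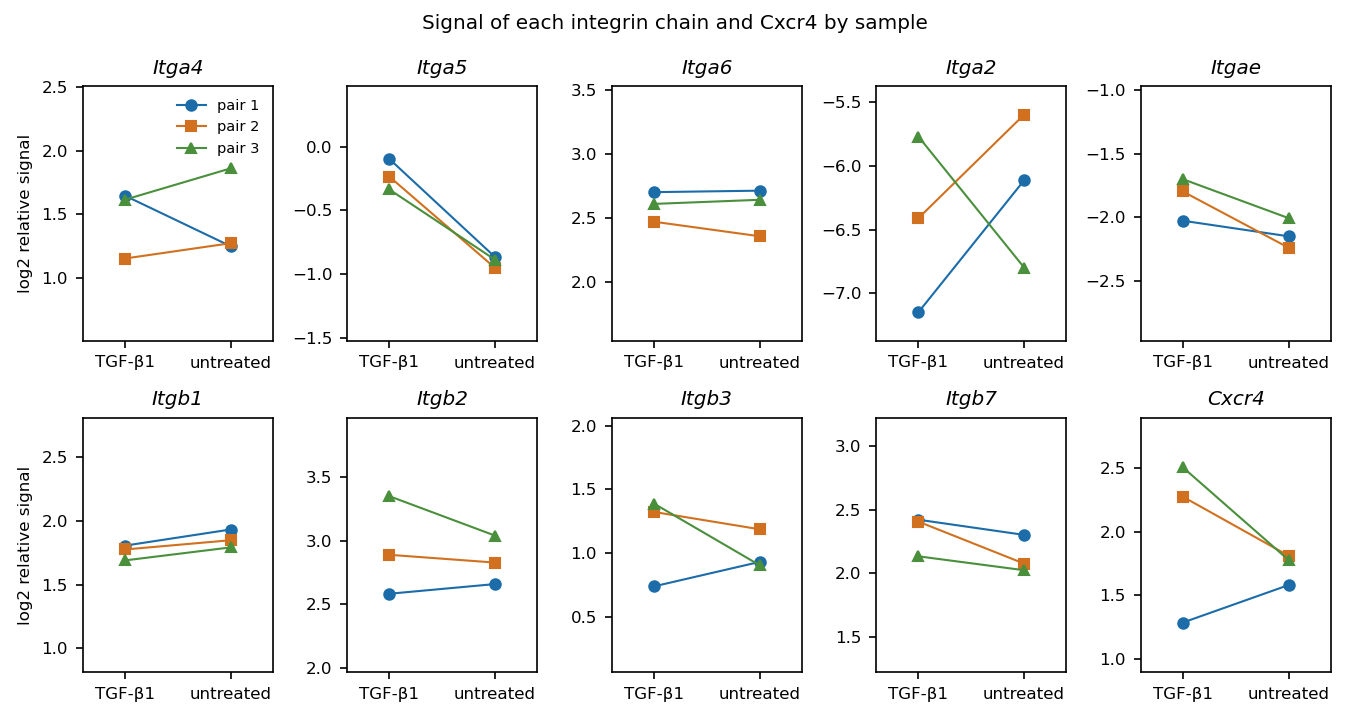
Log2 relative signal of the 9 integrin chains and Cxcr4 on each array, TGF-β1 left and untreated right, with a line joining the samples of 1 pair; every panel spans the same height of 2 log2 units. The 3 Itga5 lines run the same way and its groups do not overlap, the Itgb1 lines are nearly flat, and the Itga2 lines cross.

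**Figure D2:**
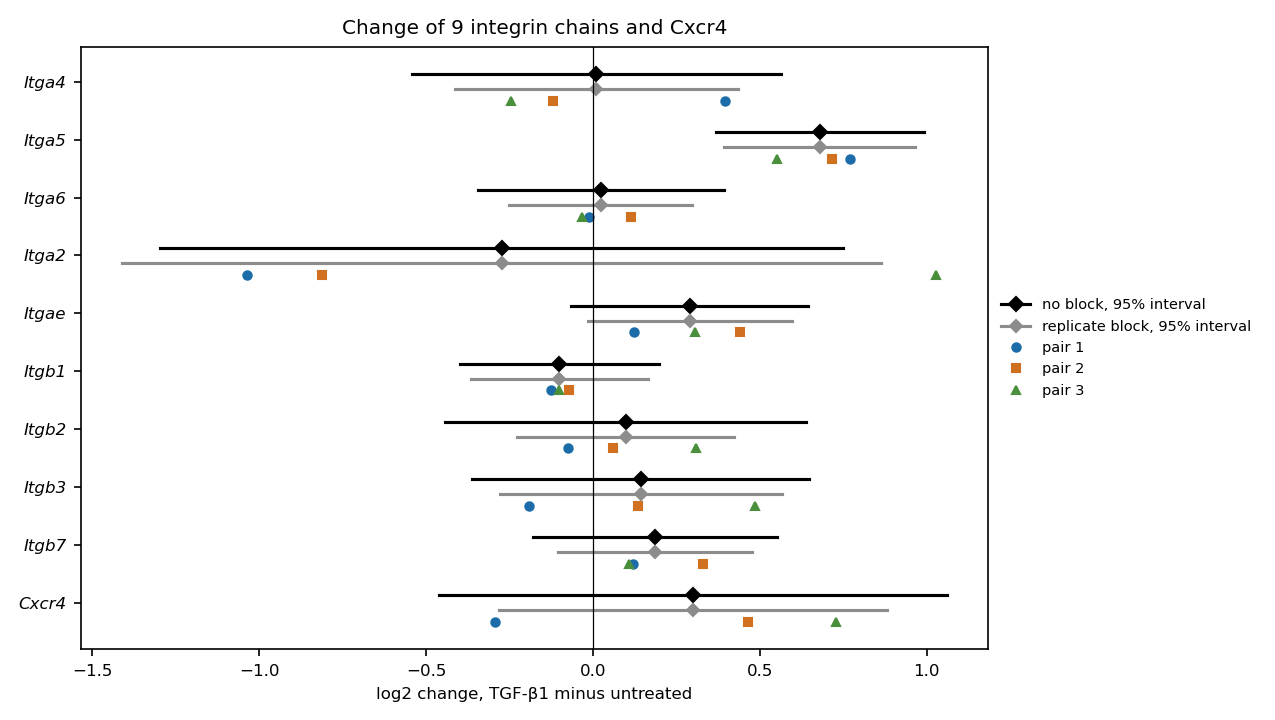
Log2 change, TGF-β1 minus untreated, of each gene (diamonds) with its 95% confidence interval from limma without a block (black) and with the replicate block (grey), and the difference within each of the 3 pairs (coloured symbols). Among the 10 genes the interval leaves out 0 for Itga5 alone, and no gene passed after adjustment over all genes.

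The fibronectin receptor chain Itga5 had the widest shift of the set. Its relative signals were 0.936, 0.850 and 0.793 on the TGF-β1 arrays, against 0.549, 0.517 and 0.541 on the untreated arrays. Every treated value lay above every untreated value. The means were 0.859 ± 0.0720 with TGF-β1 and 0.535 ± 0.0163 without (SD, n = 3 arrays each). The log2 change was 0.68 (SE 0.13, 95% confidence interval 0.37 to 0.99), or 1.60-fold, with 0.77, 0.72 and 0.55 in pairs 1, 2 and 3. In limma its adjusted p was 0.16 over all genes and 0.106 with the replicate block, so the shift did not pass the threshold. It passed in the authors' series matrix values (log2 change 0.70, SE 0.09, limma adjusted p = 0.0357). The arrays lay on 2 slides, and the difference within slide 1 was 0.78 and that within slide 2 was 0.67.

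Itgb1 encodes the beta chain shared by the products of Itga2, Itga4, Itga5 and Itga6, and its change was smaller than its moderated SE. Its main probe is printed 10 times on each array, which makes it the best measured gene of the set. The relative signals were 3.50, 3.42 and 3.23 on the TGF-β1 arrays, against 3.82, 3.60 and 3.46 on the untreated arrays. The groups overlapped narrowly, and each pair was slightly lower with treatment (-0.13, -0.07 and -0.10). The log2 change was -0.10 (SE 0.12, 95% confidence interval -0.40 to 0.20, limma adjusted p = 1). Single spots of an array had a median SD of 0.081 on the log2 scale. The array means, each over 10 such spots, had an SD of 0.060 with TGF-β1 and 0.071 without, which is not a like measure. The SE of the change is moderated with the spread of all genes, so it is not the scatter of Itgb1 alone. A second Itgb1 probe gave -0.11 on the log2 scale, with pair values of 0.0059, -0.10 and -0.22.

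The 250 bases before the annotated start are shown for this alpha and beta chain, for Itgb5, the integrin chain outside the set that did pass the test, and for Cxcr4, with RefSeq sequences of build GRCm38.p6. Of the 10 genes, 6 had an entry (Cxcr4, Itga2, Itga4, Itga5, Itgb1 and Itgb7). They were searched on both strands for CAGAC, the short SMAD-binding element (GTCTG on the other strand), and every match is in capitals. The windows lie at chr15:103366792-103367041 (minus strand) for Itga5, chr8:128685404-128685653 (plus strand) for Itgb1, chr16:33829415-33829664 (plus strand) for Itgb5 and chr1:128592300-128592549 (minus strand) for Cxcr4, and each is written 5′ to 3′ on the strand of its gene.
Itga5: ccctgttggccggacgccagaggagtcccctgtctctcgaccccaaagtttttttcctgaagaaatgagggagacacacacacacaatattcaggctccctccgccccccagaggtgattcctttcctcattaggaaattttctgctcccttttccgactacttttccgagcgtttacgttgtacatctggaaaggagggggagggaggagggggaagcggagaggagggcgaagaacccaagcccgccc
Itgb1: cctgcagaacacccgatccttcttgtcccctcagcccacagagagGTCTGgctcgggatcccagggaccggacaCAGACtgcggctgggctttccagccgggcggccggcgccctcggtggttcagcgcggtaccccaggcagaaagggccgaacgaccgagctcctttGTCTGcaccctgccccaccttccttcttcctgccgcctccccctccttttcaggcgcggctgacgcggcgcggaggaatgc
Itgb5: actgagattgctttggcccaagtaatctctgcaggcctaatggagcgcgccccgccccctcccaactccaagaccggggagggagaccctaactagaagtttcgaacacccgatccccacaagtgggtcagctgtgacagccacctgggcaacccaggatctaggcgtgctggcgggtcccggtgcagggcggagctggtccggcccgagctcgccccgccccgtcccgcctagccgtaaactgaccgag
Cxcr4: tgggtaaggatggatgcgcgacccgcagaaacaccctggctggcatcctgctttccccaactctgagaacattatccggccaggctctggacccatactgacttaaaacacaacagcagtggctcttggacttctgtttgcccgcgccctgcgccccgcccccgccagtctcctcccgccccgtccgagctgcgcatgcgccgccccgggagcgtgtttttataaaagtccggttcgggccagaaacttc
Itga5, Itgb5 and Cxcr4 had 0 matches in these windows and Itgb1 had 3, while Itga2 had 3, Itgb7 had 2 and Itga4 had 1. Of the 32851 windows of the same length in the table, 42.2% held at least 1 match. The palindrome GTCTAGAC, which shares no full copy of the shorter element, was in 0 of the 7 windows looked at and in 0.167% of all, and the AP-1 element TGANTCA was in 0 of the 7 and in 6.75% of all. These letters say nothing on whether a SMAD binds there.

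Among the other partners of the beta1 chain, the VLA-4 chain Itga4 was measured by 3 probes that did not move alike. The brightest had relative signals of 3.13, 2.22 and 3.06 on the TGF-β1 arrays, against 2.38, 2.42 and 3.63 on the untreated arrays. The groups overlapped over most of their range, and the pairs pointed both ways (0.40, -0.12 and -0.25). Its log2 change was 0.01 (SE 0.23, 95% confidence interval -0.54 to 0.56, limma adjusted p = 1). The dimmer probes gave -0.15 and -0.20 and were lower with TGF-β1 in all 3 pairs, so pair 1 is where the probes part. With the mean of the 3 probes the change was -0.11.

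The laminin receptor chain Itga6 had relative signals of 6.50, 5.54 and 6.10 with TGF-β1, against 6.56, 5.12 and 6.24 without. The treated values lay inside the range of the untreated ones. Its difference was 0.02 on the log2 scale (SE 0.15), with an interval of 0.788-fold to 1.31-fold.

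The collagen receptor chain Itga2 was close to the detection limit. The brighter of its 2 probes was well above background on 4 of 6 arrays, 2 in each group, and the other on 0. The relative signals were 0.00705, 0.0118 and 0.0183 with TGF-β1, against 0.0145, 0.0207 and 0.00899 without. The pairs disagreed in sign (-1.04, -0.81 and 1.03), and the log2 change of -0.27 carried an SE of 0.43. In folds the interval ran between 0.407 and 1.68.

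**Figure D3:**
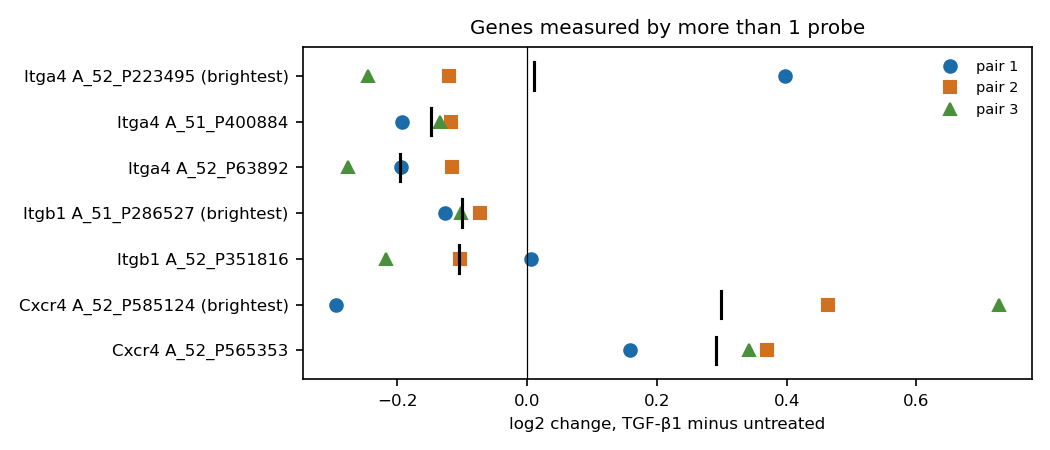
Log2 change, TGF-β1 minus untreated, in each of the 3 pairs (symbols) and their mean (black bar) for the genes of the set that had more than 1 probe past the filter. The Itga4 probes part in pair 1 and the Cxcr4 probes in pairs 1 and 3, while the means of the Itgb1 probes lie together.

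The chains of the E-cadherin receptor both had positive values that did not pass the test. Itgae had relative signals of 0.245, 0.288 and 0.307 on the TGF-β1 arrays, against 0.225, 0.212 and 0.249 on the untreated arrays. The lowest treated array lay just below the highest untreated one, which belongs to another pair. The log2 change was 0.29 (SE 0.15, 95% confidence interval -0.07 to 0.65), or 1.22-fold, with 0.12, 0.44 and 0.31 in the pairs (limma adjusted p = 1, and 0.481 with the replicate block). With normexp background correction it was 0.089, and it was 0.051 within slide 1 and 0.49 within slide 2. Itgb7 had relative signals of 5.36, 5.30 and 4.39 with TGF-β1, against 4.93, 4.22 and 4.07 without. Treated and untreated values overlapped across pairs but not within them, at 0.12, 0.33 and 0.11. The log2 change was 0.19 (SE 0.15, 95% confidence interval -0.18 to 0.55), or 1.14-fold (limma adjusted p = 1, and 0.653 with the block).

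The leukocyte beta chain Itgb2 and the platelet-type beta chain Itgb3 had pair means that lay further apart than their groups. Itgb2 had relative signals of 5.99, 7.40 and 10.2 with TGF-β1, against 6.31, 7.10 and 8.21 without. In both groups pair 1 was lowest and pair 3 highest, and the pair means spanned 0.57 log2 units against a change of 0.10 (SE 0.23, 95% confidence interval -0.44 to 0.64). Itgb3 had relative signals of 1.67, 2.50 and 2.62 with TGF-β1, against 1.91, 2.28 and 1.87 without. Its pair means spanned 0.42 log2 units, its pair values were -0.19, 0.14 and 0.48, and the groups differed by 0.14 on the log2 scale (SE 0.21, 95% confidence interval -0.36 to 0.65). The limma adjusted p was 1 for both. These errors include the spread between pairs, which the replicate block takes out. With the block Itgb2 had an SE of 0.12 and an interval of -0.23 to 0.42. Itgb3 then had an SE of 0.16 and an interval of -0.28 to 0.56, and neither gene passed. Within slide 1, which sets TGF-β1 replicate 1 against untreated replicates 1 and 3, Itgb2 had -0.27 and Itgb3 -0.18, and within slide 2 they had 0.29 and 0.17. Whether the change differs between slides was not tested.

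Cxcr4 had the widest spread over the 6 arrays of the genes that were well above background on all of them. Its brighter probe had relative signals of 2.44, 4.84 and 5.68 on the TGF-β1 arrays, against 2.99, 3.51 and 3.43 on the untreated arrays. The untreated arrays lay close together, and the treated ones lay on both sides of them. The means were 4.32 ± 1.68 with TGF-β1 and 3.31 ± 0.278 without (SD, n = 3 arrays each). The log2 change was 0.30 (SE 0.32, 95% confidence interval -0.46 to 1.06, limma adjusted p = 1, and 0.743 with the replicate block), with pair values of -0.29, 0.46 and 0.73. Without the block the interval reaches from 0.726-fold to 2.09-fold, which includes a doubling. With the replicate block it was -0.28 to 0.88 on the log2 scale, which does not. The value depended on the treated arrays: it was 0.67 without TGF-β1 replicate 1, 0.17 without replicate 2 and 0.057 without replicate 3. It was -0.39 within slide 1, which holds pair 1 and untreated replicate 3, and 0.58 within slide 2. With the slide as a block the log2 change of this probe was 0.093 (SE 0.24, limma adjusted p = 0.931). The second probe read 1.07, 1.06 and 1.34 with TGF-β1, against 0.956, 0.816 and 1.06 without. It gave a log2 change of 0.29 (SE 0.17, limma adjusted p = 1 in a fit of every probe), higher in all 3 pairs at 0.16, 0.37 and 0.34. The mean changes of the probes were close, while their values parted in pair 1 (-0.29 and 0.16) and in pair 3 (0.73 and 0.34).

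Genes with the most similar course over the 6 arrays were looked up for 3 members, those of widest range among the 9 that were well above background on all arrays: Cxcr4 (1.22 log2 units), Itga5 (0.86) and Itgb2 (0.77). The search covered 14883 genes that met the same condition. Likeness was the root mean square distance between centred log2 profiles. For Cxcr4 the nearest was Rel, an NF-kB subunit, at 0.054 log2 units, followed by Robo4 and Ptprd at 0.10 each. For Itga5 they were Tut7, Rasa2 and Bcdin3d at 0.062, 0.069 and 0.073, and for Itgb2 they were Dpysl2, Syt13 and Itih1 at 0.041, 0.049 and 0.049. These genes were found by searching the same arrays and carry no test.

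Of the 17 other integrin chains of the mouse, 14 were on the array and all 14 were measured. Among these, 1 rose and 0 fell past the threshold in limma without the block. Their median log2 change was 0.08, beside 0.10 for the 9 chains of the set and -0.01 for all genes. The one that rose was Itgb5, the beta chain that pairs with the Itgav product in a vitronectin receptor. Its relative signals were 23.8, 23.1 and 27.4 on the TGF-β1 arrays, against 7.01, 7.45 and 7.16 on the untreated arrays. The groups stood far apart. The log2 change was 1.78 (SE 0.13, limma adjusted p = 0.00911, and 0.0235 with the replicate block), or 3.43-fold, with 1.77, 1.63 and 1.94 in the pairs. It passed in 7 of 8 other settings of the whole analysis, the exception being normexp background correction. It passed in 1 of 6 fits with an array left out, that without untreated replicate 2 (limma adjusted p = 0.0428), and had up to 0.105 in the others. Its partner Itgav had a log2 change of 0.37 (SE 0.16, limma adjusted p = 0.903). The platelet chain Itga2b had -0.06 (SE 0.42), the LFA-1 chain Itgal 0.06 (SE 0.13) and the Mac-1 chain Itgam 0.09 (SE 0.31), while Itgb4 had 0.19 (SE 0.33) and Itgb6 0.24 (SE 0.58). With the replicate block the SE was 0.11 for Itga2b, Itgal and Itgam, 0.10 for Itgb4 and 0.32 for Itgb6.

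**Figure D4:**
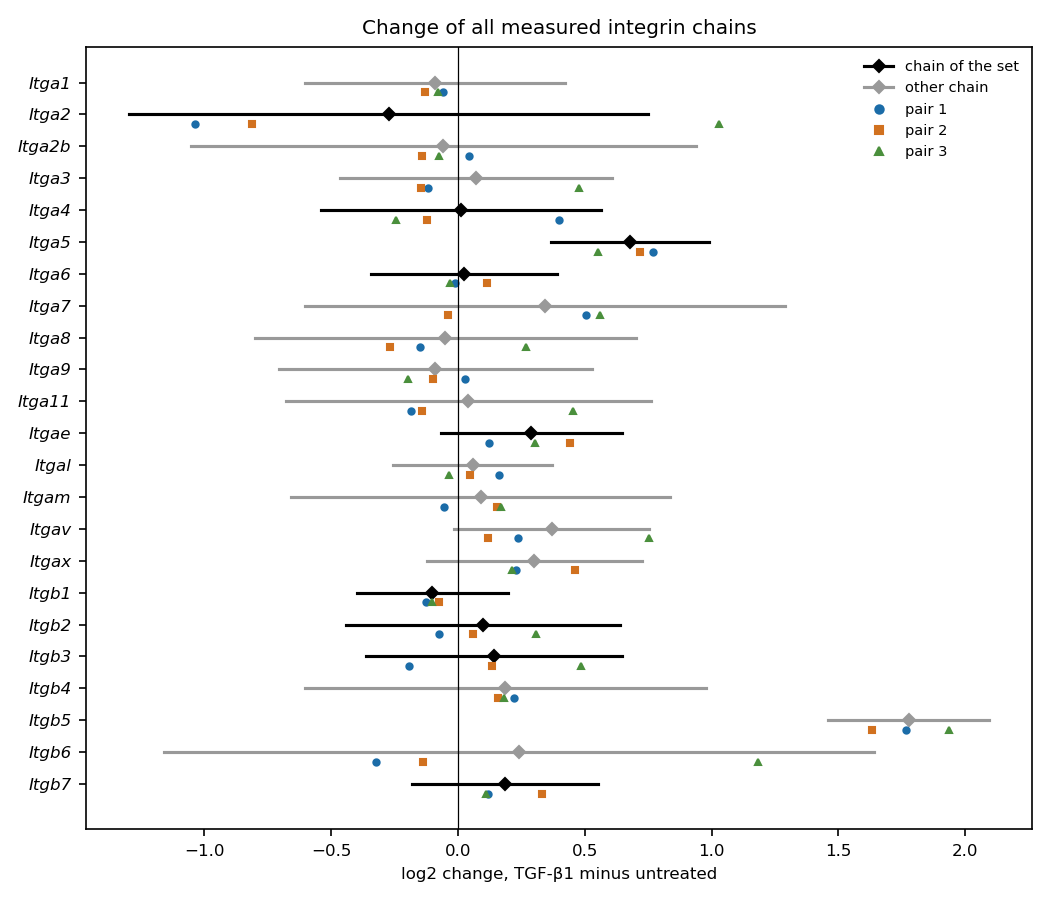
Log2 change, TGF-β1 minus untreated, of the 23 integrin chains measured, with 95% confidence intervals from limma without a block (black for the 9 chains of the set, grey for the 14 others) and the difference within each of the 3 pairs (symbols). Itgb5 stands at 1.78 and Itga5 at 0.68, and the intervals of the other 21 chains include 0.

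Genes that act with these receptors were followed as 4 lists. In the counts rose and fell stand for passing the threshold in limma, without the block unless it is named. A gene not counted may still have changed. Of 13 measured integrin ligands 0 rose and 1 fell. This was thrombospondin 1 (Thbs1), with relative signals of 0.239, 0.300 and 0.291 with TGF-β1, against 0.728, 0.606 and 0.711 without (log2 change -1.30, SE 0.16, limma adjusted p = 0.0432, and 0.0566 with the replicate block). Thbs1 passed in 4 of 8 other settings of the whole analysis. Tgfbi, a matrix protein that integrins bind, rose with the replicate block (log2 change 1.04, limma adjusted p = 0.0414, against 0.625 without it), and Icam2, a ligand of the beta2 integrins, had -0.37 (SE 0.19). The median of the ligands was 0.04.

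Of 25 integrin activation and adaptor genes 0 rose and 0 fell, with a median of -0.03. With the replicate block 1 fell, Cytip, which encodes a partner of the beta2 integrin regulator cytohesin-1. It had relative signals of 0.888, 0.968 and 1.01 with TGF-β1, against 2.04, 1.85 and 2.39 without (log2 change -1.13, SE 0.15, limma adjusted p = 0.059, and 0.0462 with the block). A dimmer Cytip probe gave -0.08. The GTPase Rac2 and the adaptor Skap2 had -0.12 (SE 0.14) and -0.06 (SE 0.17).

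Of 14 measured genes for the Cxcr4 ligand, its G-protein coupling and its desensitisation 0 rose and 0 fell, with a median of 0.01. The groups lay wholly higher with TGF-β1 in 4 of the 14 and wholly lower in 0, where 5.37% and 5.05% of all genes lay so. With the block 1 rose, Rgs2, which encodes a protein that shuts off G-protein signalling. It had relative signals of 25.1, 24.4 and 46.4 with TGF-β1, against 10.0, 9.60 and 18.8 without (log2 change 1.33, SE 0.36, limma adjusted p = 0.4, and 0.028 with the block). Pair 3 was the highest in both groups, and the pair values were 1.33, 1.34 and 1.31. Rgs1 (log2 change 1.01, SE 0.32) and Rgs16 (0.97, SE 0.29) were also higher in all 3 pairs. Neither passed in limma (adjusted p = 0.553 and 0.485, and 0.0953 and 0.358 with the block). The G-protein alpha subunits through which Cxcr4 signals had 0.08 (Gnai2, SE 0.17) and -0.10 (Gnai3, SE 0.16). Of 18 other homing and adhesion receptors 0 rose and 0 fell, with a median of 0.22. With the block 1 rose, S1pr1, the sphingosine 1-phosphate receptor that guides blood cells out of tissues. It had relative signals of 0.981, 0.884 and 0.580 with TGF-β1, against 0.225, 0.308 and 0.199 without (log2 change 1.73, SE 0.26, limma adjusted p = 0.0778, and 0.0392 with the block). The sialomucin Cd34 had 0.39 (SE 0.14) and Cd47 -0.26 (SE 0.18).

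In these bulk samples fewer cells of a type and less RNA per cell cannot be told apart. The summed relative signal of the 8 progenitor markers was 101.0 to 129.6 with TGF-β1 and 91.3 to 100.5 without. Its brightest member Cd34 and the transcription factor gene Gata2 (log2 change 0.76, SE 0.25) were higher in all 3 pairs. So were Ly6a (0.22, SE 0.20) and Slamf1 (0.14, SE 0.13). Kit, the stem cell factor receptor (-0.46, SE 0.24), and Ptprc, the leukocyte antigen CD45 (-0.39, SE 0.19), were lower in all 3. Flt3 and Lhx2 pointed both ways. The 9 mesenchymal markers, of which 8 were well above background on all arrays (Pdgfra on 5 of 6), summed to 41.1, 76.9 and 13.5 on the TGF-β1 arrays of pairs 1, 2 and 3, against 34.3, 79.8 and 16.4 on the untreated ones. The 7 measured of 8 megakaryocyte markers summed to 18.1 to 62.8 with TGF-β1 and 20.5 to 69.2 without, with pair 3 lowest in both groups. The 8 mast cell markers summed to 13.5 to 20.7 with TGF-β1 and 17.4 to 25.2 without, and 7 of 8 T cell markers to 2.03 to 2.51 with and 2.08 to 2.82 without. The 5 measured of 6 monocyte and macrophage markers gave 149.3 to 166.8 with TGF-β1 and 145.9 to 188.0 without. The 5 B cell markers gave 1.99 to 2.57 with and 2.00 to 2.80 without, and the 6 neutrophil markers 379.3 to 460.0 with and 374.1 to 494.7 without. Most of the neutrophil sum was Mpo, at 358.4 to 365.9 with TGF-β1 and 352.7 to 388.9 without. In pairs 1, 2 and 3 S100a8 read 3.66, 10.5 and 27.3 with TGF-β1, against 2.84, 8.67 and 29.6 without. S100a9 read 13.2, 41.2 and 62.1, against 11.5, 35.9 and 70.9. The 4 measured of 6 erythroid markers gave 0.412 to 0.482 with TGF-β1 and 0.378 to 0.501 without, and the 4 measured of 5 endothelial markers 1.22 to 1.45 with and 1.09 to 1.52 without, while Tek was above background on 0 arrays. Of all these markers 0 passed in limma with or without the block. By mean log2 signal the brightest of each list were Cd34, Acta2, Pf4, Cpa3, Cd3e, Lyz2, Mpo, Cd79b, Epor and Pecam1. The mesenchymal marker Dcn lay above Acta2 in pairs 1 and 2 (17.7 and 39.5 with TGF-β1, 15.3 and 43.6 without). It lay below Acta2 in pair 3 (0.577 with and 0.517 without). The part of all these markers in the values of the receptors was not tested.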

How the data were processed

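Each sample's Cy3-labelled RNA was read on 1 one-colour array (Agilent design 014868, annotated on mouse build mm8). The deposited scanner tables give a processed intensity for each spot, made by Feature Extraction version 10.1.1.1 per the file headers, with steps not given in the sources used here. A series matrix of log2 values was deposited as well. The submitters' processing notes name limma, with its settings not given in the sources used here. Its columns had medians between 7.383 and 7.417 and followed the log2 median spot signal (r from 0.9995 to 0.9999), so its scale is log2 and its direction that of the signal, while its normalization is unknown.

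Here log2 processed signal minus each array's 75th percentile was used. Spots flagged as outliers were left out and spots of a probe averaged, and 50 probes with no other spot on an array were dropped. Probes well above background on at least 3 of 6 arrays entered, named through RefSeq accessions (assembly GRCm38.p6, names only), with the brightest probe for each gene. Limma 3.58.1 in R 4.3.3 compared the groups, with p adjusted over 29163 genes and transcripts at a threshold of 0.05. Standard errors are moderated. The fit was run on data simulated from its own residual SDs, which checks the code and does not show what share of real changes it finds. The number of arrays limits the precision.

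Same-numbered samples deviated together (r of their deviations from the group means over genes = 0.636, 0.786 and 0.557), so the numbers were taken to pair the samples. The series' design text gives 3 independent RNA harvests, and no label ties a number to a harvest. Blocked values stand beside results whose call they change. Slide 1 held TGF-β1 replicate 1 and untreated replicates 1 and 3, and slide 2 the others. Pairs 1 and 2 thus each shared a slide, so harvest and slide cannot be told apart in their r. In pair 3 treatment and slide cannot be told apart. This bears on its pair values and on counts of signs over the 3 pairs, and the replicate block does not take it out.

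The members and lists were chosen with earlier results of these data known. The text names all members, genes of the lists past the threshold in either fit or else the brightest, up to 3 a list, Smad7 and Skil as a check, and the brightest marker of each list. Itgav, Rgs1, Rgs16, Gata2, Ly6a, Slamf1, Kit, Ptprc, Flt3, Pdgfra, Dcn, S100a8, S100a9 and Tek were named after their values were seen. So were genes that only the closing section names. Alternatives were other normalizations, filters, probe rules, blocks and single arrays left out. The scanner files hold no mean signal, so normexp (offset 50) used the median spot signal.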

Additional observations from a re-analysis of the deposited data

How the results depend on the processing

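The count of 0 changed receptor genes was the same in every alternative tried except the authors' series matrix values, where it was 1 (Itga5). Over all genes the 74 calls became 5 with normexp (all 5 among the 74), 174 with the authors' matrix values (66 of the 74), 196 with the replicate block (73 of the 74) and 7 to 24 with single arrays left out. The last has fewer samples, and for the others the cause was not tested. The median residual SD was 0.157 with the replicate block and 0.241 without it, and a slide block, at 0.159, made 59 calls. The replicate block changed no call among the 10 genes. Of 159 values of the 10 genes under alternatives, 143 kept direction and side of the threshold and 15 turned sign, all of genes that were not called. These were Itga4 with the matrix values (-0.039) and with the mean of its probes (-0.11), Itgb3 with a slide block (-0.0051), and, from slide 1 alone, Itgb3 (-0.18), Itgb2 (-0.27) and Cxcr4 (-0.39). With single arrays left out Itga2 ran from -0.61 to 0.079, Itga4 from -0.10 to 0.21, Itga6 from -0.084 to 0.095 and Itgb2 from -0.11 to 0.28. Cxcr4 ran from 0.057 to 0.67 and Itgae from 0.22 to 0.38. With normexp Itgae had 0.089 and Itgb7 0.32. Itga5 kept its sign throughout, from 0.62 to 0.78, with adjusted p between 0.0357 and 0.987. Thbs1, Tgfbi, Cytip, Rgs2 and S1pr1 passed in 0 of 6 fits with an array left out. Signal near background limits Itga2. With 3 arrays a group, the intervals of Itgae and Itgb7 included 0 with and without the replicate block, and neither gene passed the threshold.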

Other observations

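Of the 18 other homing and adhesion receptors 10 were higher with TGF-β1 in all 3 pairs and 4 were lower in all 3, where 14.1% and 20.0% of all genes were. The groups lay wholly higher with TGF-β1 in 6 of the 18 and wholly lower in 1, where 5.37% and 5.05% of all genes lay so. Beside S1pr1, the largest values among those higher in all 3 pairs belonged to the chemokine receptors Cx3cr1 (log2 change 1.24, SE 0.61) and Cxcr2 (1.13, SE 0.26) and to the sialomucin Cd164 (0.62, SE 0.19). None of these 3 passed in limma (adjusted p = 1, 0.277 and 0.502, and 0.115, 0.156 and 0.121 with the replicate block). They were chosen after their values were seen.

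Some receptor genes differed between pairs in both groups alike. Itga2b, the platelet integrin alpha chain, had relative signals of 3.58, 2.32 and 1.45 with TGF-β1, against 3.48, 2.56 and 1.53 without, lowest in pair 3 in both groups. The chemokine receptor Ccr2 was highest in pair 3, with 1.81, 1.81 and 5.72 with TGF-β1, against 3.55, 2.96 and 7.60 without. The platelet factor gene Pf4 read 55.8, 60.1 and 15.8 with TGF-β1, against 66.0, 54.4 and 18.4 without.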
